A study of Mus musculus with 12 samples.

Results

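The hypothalamus reads the energy state of the body through receptors for hormones and peptides of hunger and satiety. Leptin from fat and insulin from the pancreas report stored energy, ghrelin from the stomach reports an empty gut, and glucagon-like peptide 1 from gut and brainstem reports a meal. These signals meet on arcuate neurons, whose melanocortin and neuropeptide Y products then act on receptors of their own to lower or raise food intake. The genes described here were Lepr, Insr, Ghsr, Glp1r, Mc3r, Mc4r, Npy1r, Npy2r and Npy5r, which encode such receptors, and Socs3, which encodes an inhibitor of leptin and insulin receptor signaling. They were chosen by name: every non-control probe whose gene name equals 1 of these 10 was taken, which gave 14 probes on 23 spots, out of 41174 probes on 43379 spots of each array (27827 gene names).

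Gene expression was measured on 12 Agilent 1-color arrays of hypothalamus from male ICR mice, an outbred stock. Mice were 3 weeks old at the start, and alcohol mice chose freely between a water tube and a tube with 5% or 10% alcohol, while water mice had water in both. The 4 groups of 3 arrays each were water-only mice, low alcohol drinkers, early high alcohol drinkers and late high alcohol drinkers. The arrays held pooled RNA: 9 water mice made 3 pools of 3, and 19 alcohol mice made 9 pools of 1 to 3. In the study's list of pools, each pool of mice that drank less held 3 mice and each pool of mice that drank more held fewer. Each of the latter also held mice offered only 1 of the alcohol strengths. Pool size thus went with drinking, and the fits gave every pool the same weight. Mice were sorted by how much they drank, not assigned to it, and alcohol was offered until the tissue was taken (day 51 in the sample labels, day 57 in the design text), so chronic intake, recent intake and a drinking trait cannot be told apart here. The spread between pools is the error behind every test below.

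The 75th percentile of signal intensity was 1512 to 1853 over the arrays, with 67.0% to 79.3% of spots well above background, and no spot was saturated. Of 11 hypothalamic marker genes tested, 10 were well above background on all 12 arrays, among them Hcrt, Pmch, Avp and Oxt. The arrays sat on 3 slides of 4. All 3 water pools shared slide 1 with pool 1 of the low drinkers, and that slide was scanned on another day than the rest. Low pools 2 and 3 shared slide 2 with early high pools 1 and 2, and the late high pools shared slide 3 with early high pool 3. No water pool was on slides 2 or 3, so slide and group can be told apart only in part. All values below are log2 intensities relative to the 75th percentile of the array, a scale on which 0 is that percentile, and they compare arrays for 1 probe, not probes with each other.

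No probe of the 10 genes passed an adjusted p of 0.05 in any of the 6 comparisons made (water against all alcohol pools and against each of the 3 kinds of drinkers, high against low drinkers, and late against early high drinkers). The melanocortin receptor Mc3r and the neuropeptide Y receptor Npy5r were the genes with an unadjusted p under 0.05 in alcohol against water, both lower in alcohol. Mc3r was lower in alcohol pools than in water pools by 0.28 on the log2 scale and lower in late high drinkers by 0.52, a fold of 0.699. Npy5r was lower in alcohol pools by 0.16. All water pools shared a slide, and with slide as a fixed block these values were −0.08, −0.26 (adjusted p = 0.748) and 0.022, and no probe of the 10 genes kept an unadjusted p under 0.05 in alcohol against water. A second, dimmer Mc3r probe gave 0.47 in alcohol and 0.38 in late high drinkers. Lepr, Insr, Ghsr, Glp1r, Mc4r, Npy1r, Npy2r and Socs3 had differences between alcohol and water that did not exceed the spread between pools at an unadjusted p of 0.05.

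**Figure D1:**
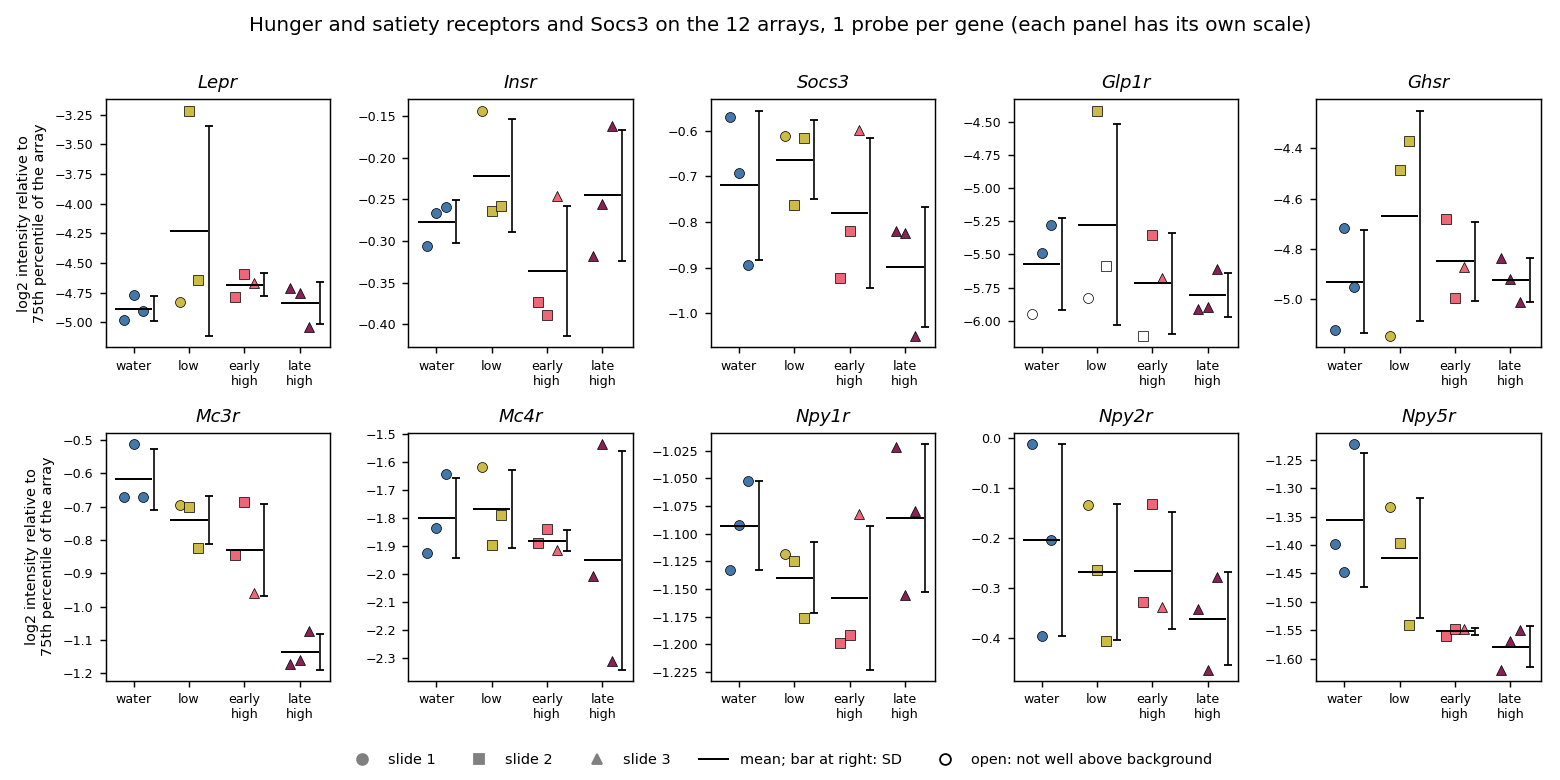
Log2 intensity of 1 probe per gene, relative to the 75th percentile of the array (vertical axis, own scale in each panel), in the 4 groups of 3 pools (horizontal axis), with the mean as a line and the SD as a bar. Mc3r lies between −1.17 and −1.07 in late high drinkers and between −0.67 and −0.51 in water pools, while Lepr has 1 low drinker pool at −3.21 above 11 pools at −4.60 or less.

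In the comparison of all alcohol pools with water pools, 2 of the 14 probes had an unadjusted p under 0.05, both lower in alcohol, against 5.53% of the 32376 probes tested (3.85% higher and 1.68% lower). The smallest adjusted p among all probes was 0.819, so 0% of the 32376 passed by limma. Of the 10 genes, taking for each the probe with the highest mean, 3 had a positive and 7 a negative difference, with a median of −0.05 beside 0.03 over all probes tested.

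Among the melanocortin receptors, which bind the satiety peptide alpha-MSH cut from proopiomelanocortin and its antagonist AgRP, Mc3r is known for shaping feeding rhythm and the storage of nutrients. Mc3r was measured by a pair of probes on chromosome 2 (build mm9, plus strand) that lie 480 bases apart, at bases 733 and 1273 of the transcript NM_008561. Their sequences are shown because these probes gave differences of opposite sign in all comparisons with water. The brighter, A_51_P467284, lies at chr2:172074725-172074784 and the dimmer, A_51_P467278, at chr2:172075265-172075324, and each has a GC content of 55%.
A_51_P467284: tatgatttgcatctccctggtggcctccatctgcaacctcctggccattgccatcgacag
A_51_P467278: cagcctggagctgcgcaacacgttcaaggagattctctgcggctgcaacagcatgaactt

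With the brighter probe, well above background on all 12 arrays, Mc3r read −0.67, −0.51 and −0.67 in the water pools. It read −0.70, −0.70 and −0.82 in low drinkers, −0.85, −0.69 and −0.96 in early high drinkers, and −1.17, −1.16 and −1.07 in late high drinkers. Every alcohol pool lay below every water pool by a narrow margin, with early high pool 2 at −0.69 beside water pools 1 and 3 at −0.67, and the 3 late high pools lay below the other 9. Every alcohol pool was below every water pool for 1 of the 14 probes and above for none, against 0.33% and 1.61% of all probes tested. The difference between alcohol and water was −0.28 (SE 0.12, 95% interval −0.54 to −0.03, 3 against 9 arrays), with p = 0.0322 and an adjusted p of 0.819 by limma and p = 0.0318 by an exact 2-sided permutation test. Without any 1 of the water pools the limma p was 0.0515 to 0.127. Fewer cells that express Mc3r and less Mc3r RNA per cell cannot be told apart in such tissue.

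By group, the mean of Mc3r was −0.74 ± 0.07 (SD, n = 3) in low, −0.83 ± 0.14 in early high and −1.13 ± 0.05 in late high drinkers, beside −0.62 ± 0.09 in water. Low drinkers differed from water by −0.12 (SE 0.08, adjusted p = 0.706) and early high drinkers by −0.21 (SE 0.08, adjusted p = 0.886). In late high drinkers the difference was −0.52 (SE 0.08, 95% interval −0.70 to −0.33), with p = 9.69e-05 and an adjusted p of 0.0918 by limma and p = 0.1 by an exact permutation test. Without late high pool 3 it was −0.55 with an adjusted p of 0.0355, the 1 omission of 12 that passed, and 1.24% of the 32383 probes tested passed with it. Over all arrays no probe among 32491 passed in that comparison, where the smallest adjusted p was 0.0693. With 3 against 3 pools, an exact permutation test cannot give a p below 0.1.

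Within the drinkers, high drinkers differed from low drinkers in Mc3r by −0.24 (SE 0.07, adjusted p = 0.181) and late from early high drinkers by −0.30 (SE 0.08, adjusted p = 0.324). The first was −0.11 without scaling between arrays and −0.092 with slide as a fixed block (adjusted p = 0.485 and 0.753). These comparisons share pools with each other, and those against water share the water pools, so their values are not independent.

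Slides and groups overlapped for Mc3r. The mean was −0.64 on slide 1, −0.76 on slide 2 and −1.09 on slide 3, and slides accounted for 86.1% of the spread over the 12 arrays, as did the 4 groups with 86.0%. Within slide 1, low pool 1 differed from the mean of the water pools by −0.08. On slide 2 the early high pools differed from the low pools by −0.0044. On slide 3 the 3 late high pools all lay below early high pool 3, with a mean difference of −0.18. With slide as a fixed block, the difference of late high drinkers from water was −0.26 (adjusted p = 0.748) in place of −0.52, and that of alcohol from water −0.08, a value which then rests on low pool 1. Of 17 lists of marker genes, 4 had a summed level wholly below water in late high pools, 2 wholly above and 11 overlapping. Of all single probes tested in that comparison, 13.6% lay wholly below and 12.8% wholly above. A summed level follows the brightest genes of a list. By the mean of its genes, each centered over the arrays, 2 lists lay wholly below (blood and striatum), 2 wholly above (thalamus and lateral hypothalamus, the latter at 0.08 to 0.12 against −0.16 to −0.0034 in water) and 13 overlapped, among them choroid plexus, cortex and white matter. The 4 blood genes had a summed level of 6.91 to 7.21 in water and 6.22 to 6.67 in late high pools, the 6 thalamic genes 2.96 to 3.17 and 3.37 to 4.26, and the 5 striatal genes 2.04 to 2.16 and 1.81 to 1.94 (log2, with all of those genes detected on every array). The 5 white matter genes read 7.18 to 7.36 in water and 7.37 to 7.63 in late high pools, the 6 choroid plexus genes 1.34 to 1.75 and 1.17 to 1.33, and the 5 cortical genes, 2 of them detected on every array, −1.15 to −1.10 and −1.47 to −1.19. The 5 pituitary genes overlapped, at 1.70 to 3.63 and 1.97 to 2.69. Of these, 4 of the 5 were lower in high than in low drinkers at an unadjusted p under 0.05, against 12.2% of all probes. The 9 arcuate genes read 5.77 to 5.93 in water and 5.69 to 5.81 in late high pools, and the 5 ventromedial genes 2.61 to 2.69 and 2.40 to 2.77. All 4 blood genes were lower in late high drinkers at an unadjusted p under 0.05, against 8.88% of all probes tested. The part of any of these lists in the Mc3r difference was not tested.

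**Figure D2:**
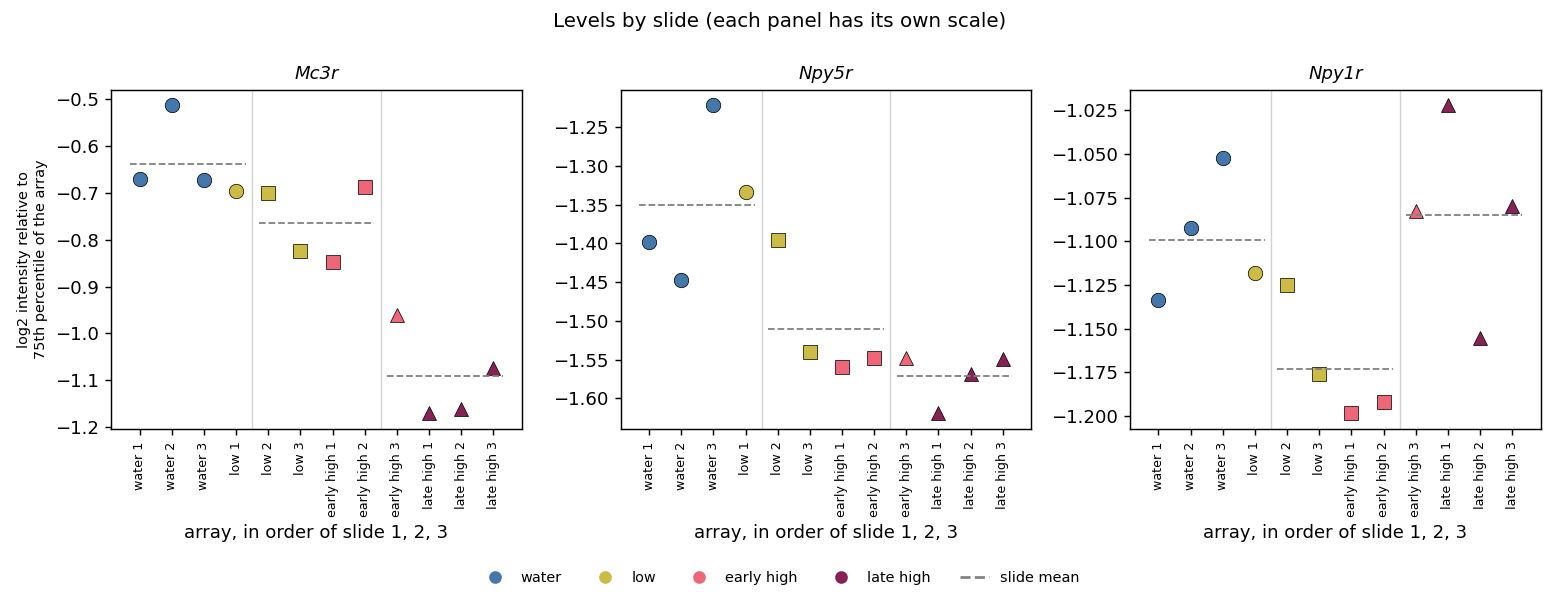
Log2 intensity of Mc3r, Npy5r and Npy1r, relative to the 75th percentile of the array (vertical axis), on the 12 arrays in the order of the 3 slides (horizontal axis), with colors for the groups and dashed lines for slide means. Mc3r has slide means of −0.64, −0.76 and −1.09, Npy5r of −1.35, −1.51 and −1.57, and Npy1r of −1.10, −1.17 and −1.08.

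The dimmer Mc3r probe gave the opposite sign in 5 of the 6 comparisons and the same sign in high against low drinkers (−0.38). It was well above background on 10 of 12 arrays, with intensities of 34.4 to 115 where the brighter probe had 817 to 1107, and it read −5.47 to −5.28 in water pools against −5.73 to −4.01 in alcohol pools. Its difference between alcohol and water was 0.47 (SE 0.32, 95% interval −0.23 to 1.17, adjusted p = 0.820), and between late high drinkers and water 0.38 (SE 0.41). Its 3 highest arrays were late high pool 3 at −4.01, low pool 2 at −4.13 and low pool 3 at −4.46, so the late high pools did not stand together on it.

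Mc4r, the other central melanocortin receptor, whose loss causes overeating and obesity, was well above background on all 12 arrays. It read −1.92, −1.84 and −1.64 in water, −1.62, −1.89 and −1.79 in low drinkers, −1.89, −1.84 and −1.91 in early high drinkers, and −2.01, −1.53 and −2.31 in late high drinkers. Late high drinkers therefore held both its highest and its lowest pool, and the groups overlapped. The difference between alcohol and water was −0.07 (SE 0.13, 95% interval −0.36 to 0.23, adjusted p = 0.926).

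Neuropeptide Y, the appetite stimulating peptide of arcuate neurons, acts through Npy1r and Npy5r on its target neurons, while Npy2r sits largely on the neurons that release it and also reads the gut peptide PYY. Npy1r and Npy5r are neighbors on chromosome 8, transcribed away from each other, and their probes lay 25245 bases apart in mm9 (Npy5r at chr8:69204446-69204505, minus strand, and Npy1r at chr8:69229751-69229810, plus strand). The 250 bases before the RefSeq start of each gene (GRCm38.p6) are shown because these genes are neighbors, with Mc3r for comparison. No test compared Npy5r with Npy1r. Both strands were searched for the GC box GGGCGG and for the CCAAT box. They were also searched for TATAAA, known from promoters with a fixed start. The search also took in TGACG, the core of sites bound by CREB. The last was the STAT motif TTCNNNGAA. Matches are in capitals, and ATTGG is CCAAT on the other strand. CCAAT was found once in Npy5r and once in Mc3r and not in Npy1r, and 33.8% of the 32851 windows of that length held it. Of the 8 genes with a window, Lepr held it too, beginning 195 bases before its first start. Lepr differed between alcohol and water by 0.30, the opposite sign to Npy5r and Mc3r. The part of this box in any difference was not tested. None of the other motifs was in the windows of Npy5r, Npy1r or Mc3r.
Npy5r, chr8:66688095-66688344, minus strand: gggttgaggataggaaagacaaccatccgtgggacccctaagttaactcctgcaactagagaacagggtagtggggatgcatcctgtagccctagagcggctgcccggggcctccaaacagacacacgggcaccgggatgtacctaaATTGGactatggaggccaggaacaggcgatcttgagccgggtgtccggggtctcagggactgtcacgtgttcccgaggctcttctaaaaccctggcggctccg
Npy1r, chr8:66697172-66697421, plus strand: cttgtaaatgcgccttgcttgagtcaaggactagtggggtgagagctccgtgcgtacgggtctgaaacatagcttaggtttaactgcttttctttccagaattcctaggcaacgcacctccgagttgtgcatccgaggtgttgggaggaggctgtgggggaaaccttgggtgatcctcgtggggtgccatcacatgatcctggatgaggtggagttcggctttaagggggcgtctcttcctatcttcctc
Mc3r, chr2:172248242-172248491, plus strand: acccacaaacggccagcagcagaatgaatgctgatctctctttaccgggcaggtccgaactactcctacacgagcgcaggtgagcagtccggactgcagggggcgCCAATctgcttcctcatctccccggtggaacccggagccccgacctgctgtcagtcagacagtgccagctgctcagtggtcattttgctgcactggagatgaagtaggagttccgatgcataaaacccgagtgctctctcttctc

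Npy5r read −1.40, −1.45 and −1.22 in water pools and −1.33, −1.40 and −1.54 in low drinkers. It read −1.56, −1.55 and −1.55 in early high drinkers and −1.62, −1.57 and −1.55 in late high drinkers. The 6 high drinker pools lay between −1.62 and −1.55 and below every low and every water pool, while low drinkers and water overlapped. The difference between alcohol and water was −0.16 (SE 0.07, 95% interval −0.31 to −0.01), with p = 0.0362 and an adjusted p of 0.819 by limma and p = 0.0273 by an exact 2-sided permutation test. Low drinkers differed from water by −0.07 (SE 0.07), early high drinkers by −0.20 (SE 0.07, adjusted p = 0.886) and late high drinkers by −0.22 (SE 0.07, adjusted p = 0.197). In early high drinkers 4 of 5 pituitary marker genes were also lower than water at an unadjusted p under 0.05 (median −1.23), against 1.87% of all probes. Their part in the Npy5r and Mc3r values was not tested.

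The late high difference was −0.10 without scaling between arrays, −0.094 with slide and −0.089 with scan day as a fixed block (adjusted p = 0.698, 0.910 and 0.782).

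High drinkers differed from low drinkers in Npy5r by −0.14 (SE 0.06, adjusted p = 0.322, permutation p = 0.0119, the smallest that 84 ways of choosing 3 of 9 pools can give, in an exact 2-sided test). Without scaling between arrays that difference was −0.014 (adjusted p = 0.950). Every high pool was below every low pool for 1 of the 14 probes and above for none, against 5.05% and 1.56% of the 32150 probes tested. Slides accounted for 67.8% of the spread of Npy5r. Low pool 1, on the slide of the water pools, was 0.022 above their mean, which is also the alcohol difference with slide as a fixed block. On slide 2 the early high pools were below the low pools by a mean difference of −0.09, and low pool 3, at −1.54, read nearly as low as the early high pools beside it. Without water pool 3, its highest array, the alcohol difference was −0.10 (p = 0.227 by limma, against p = 0.0273 by the exact permutation test over all 12 arrays). Without water pool 1, low pool 3 or any 1 of the early or late high pools, the limma p of that difference was 0.0501 to 0.0532, which does not pass an unadjusted 0.05, against 0.0362 over all arrays, where the exact permutation p was 0.0273.

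Npy1r was the steadiest of the 14 probes, at −1.20 to −1.02 over the 12 arrays (SD 0.06). Its difference between alcohol and water was −0.04 (SE 0.05, 95% interval −0.14 to 0.07, adjusted p = 0.888), and late high drinkers differed from water by 0.01 (SE 0.06). The lowest pools were early high pools 1 and 2 and low pool 3, all on slide 2, where the mean was −1.17. Npy2r read −0.01, −0.40 and −0.20 in water, and from −0.46 in late high pool 2 to −0.13 in early high pool 2 among drinkers, so that late high pool 2 and low pool 3 were below the water pools and the other 7 among them. The Npy2r difference was −0.09 (SE 0.09, 95% interval −0.29 to 0.10, adjusted p = 0.845).

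**Figure D3:**
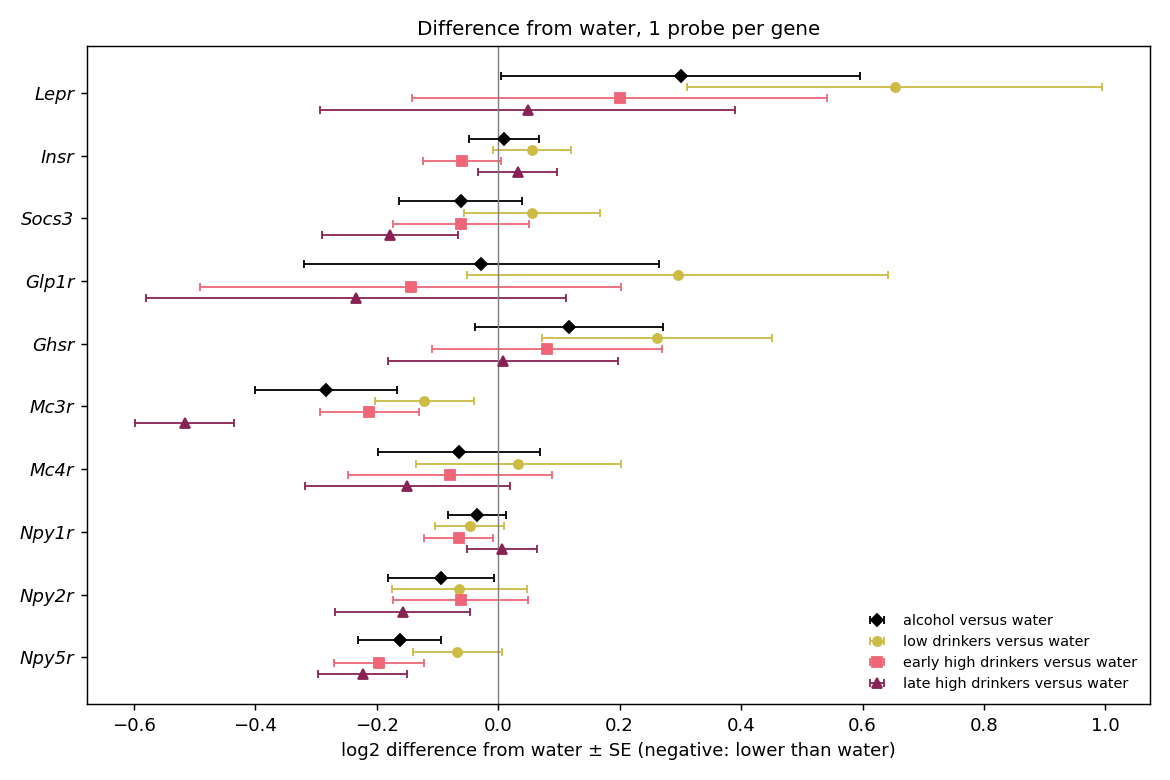
Log2 difference from water with its SE (horizontal axis, negative where drinkers were lower) for 1 probe of each of the 10 genes (vertical axis), for all alcohol pools and for low, early high and late high drinkers. Mc3r lies at −0.28, −0.12, −0.21 and −0.52 in that order and Npy5r at −0.16, −0.07, −0.20 and −0.22, while the error bars of Lepr, Ghsr and Glp1r are wider than those of Insr and Npy1r.

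The leptin receptor, Lepr, through which leptin restrains feeding, was measured by a probe spotted 10 times on each array, A_51_P396045, which spans 1502 bases of chromosome 4 (mm9, chr4:101461940-101463441, plus strand), so its 60 bases cross an exon junction, and which matches the transcripts NM_010704 and NM_146146. It read −4.98, −4.77 and −4.91 in water, −4.83, −3.21 and −4.65 in low drinkers, −4.79, −4.60 and −4.67 in early high drinkers, and −4.71, −4.76 and −5.04 in late high drinkers. Low pool 2 stood apart from the other 11 arrays, which lay between −5.04 and −4.60. The 10 spots of low pool 2 had intensities of 150 to 187, and the spots of the other 11 arrays 43.8 to 93.1, so all repeats on that array were high. Low pool 2 also had the highest median intensity over all probes, at 244 against 193 to 230 on the other arrays. Its 75th percentile, 1532, lay near the low end of 1512 to 1853. The part of this array-wide trait in the Lepr value was not tested. The SD among 10 spots of 1 array was 0.10 to 0.26 on the log2 scale. The difference between alcohol and water was 0.30 (SE 0.30, 95% interval −0.35 to 0.95, adjusted p = 0.851), and it was 0.13 without low pool 2. A second Lepr probe, matching the transcript NM_001122899 at chr4:101485484-101485543, was well above background on 0 water, 0 low, 2 early high and 1 late high arrays, and had a value on 10 arrays. Low pool 3 and early high pool 1 were left out there for a signal near its error, with intensities of 14.3 and 13.2, dimmer than every water pool. Values of that probe for low and early high drinkers therefore rest on 2 of 3 pools each and leave out the dimmest, and no fold is given. With the dim spots kept in, that probe had no unadjusted p under 0.05 in any of the 6 comparisons.

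The insulin receptor, Insr, was measured at chr8:3151667-3151726 (mm9, minus strand) by a probe well above background on all 12 arrays. It read −0.31, −0.27 and −0.26 in water, −0.14, −0.26 and −0.26 in low drinkers, −0.37, −0.39 and −0.25 in early high drinkers, and −0.32, −0.26 and −0.16 in late high drinkers. The whole range was 0.25, and the difference between alcohol and water was 0.01 (SE 0.06, 95% interval −0.12 to 0.13, adjusted p = 0.980). A second Insr probe, at chr8:3159473-3159532, was well above background on 6 arrays. It read −6.19 to −5.77 in water and −5.98 to −5.14 in 8 alcohol pools, with low pool 2 again apart at −3.79, and its difference of 0.56 (SE 0.37, adjusted p = 0.820) overlapped between groups.

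Socs3, the feedback inhibitor that leptin induces through the transcription factor STAT3 and that blocks the leptin and insulin receptors, was measured at chr11:117827480-117827539 (mm9, minus strand). The 250 bases before its RefSeq start (GRCm38.p6, chr11:117969367-117969616, minus strand) are shown because STAT3 is known to act there. They hold a match to TTCNNNGAA beginning 154 bases before the start and a GGGCGG beginning 112 bases before it, in capitals. The STAT motif was found in 7.02% and GGGCGG in 32.7% of the 32851 windows of that length, and in no other of the 8 genes with a window in the table was the STAT motif found.
Socs3: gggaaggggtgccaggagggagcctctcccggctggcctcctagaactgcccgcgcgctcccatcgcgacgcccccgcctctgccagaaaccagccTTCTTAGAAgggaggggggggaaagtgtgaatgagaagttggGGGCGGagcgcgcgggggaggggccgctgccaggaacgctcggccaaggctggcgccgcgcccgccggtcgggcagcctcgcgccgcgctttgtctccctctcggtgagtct

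Socs3 RNA read −0.57, −0.69 and −0.89 in water, −0.61, −0.76 and −0.62 in low drinkers, −0.92, −0.82 and −0.60 in early high drinkers, and −0.82, −0.82 and −1.05 in late high drinkers. Late high pool 3 and early high pool 1 were below all water pools, and the other 7 alcohol pools were among them. The difference between alcohol and water was −0.06 (SE 0.10, 95% interval −0.28 to 0.16, adjusted p = 0.904). Late high drinkers differed from water by −0.18 (SE 0.11, adjusted p = 0.480) and high from low drinkers by −0.18 (SE 0.10, adjusted p = 0.398).

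Ghsr, the receptor through which ghrelin stimulates feeding, was measured by a pair of probes on chromosome 3 (mm9, plus strand). The brighter probe, at chr3:27276269-27276328, was well above background on all 12 arrays. It read −5.12, −4.71 and −4.95 in water, −5.15, −4.49 and −4.37 in low drinkers, −4.68, −4.99 and −4.87 in early high drinkers, and −4.83, −4.92 and −5.01 in late high drinkers. Low pools 2 and 3 were its highest arrays and low pool 1 its lowest, and the difference between alcohol and water was 0.12 (SE 0.15, 95% interval −0.22 to 0.46, adjusted p = 0.884). Without low pool 1, low drinkers differed from water by 0.50 (adjusted p = 0.0487) and high from low drinkers by −0.46 (adjusted p = 0.0471), where with it the differences were 0.26 and −0.22. Leaving out low pool 1 also let 8.14% and 8.05% of all probes pass in these comparisons, beside 1 of the 14. With scan day as a block, which sets low pool 1 apart from the other low pools, both Ghsr probes passed in high against low drinkers (−0.46 and −1.16, adjusted p = 0.0383 and 0.0481), as did 11.4% of all probes. The thalamic genes had summed levels of 3.55 and 3.76 in low pools 2 and 3, 2.68 in low pool 1 and 2.96 to 3.17 in water. They were as high or higher in early high pool 3 (3.79) and late high pool 3 (4.26), where Ghsr read −4.87 and −5.01, and their part in the Ghsr values was not tested. The second probe, at chr3:27271029-27271088, was well above background on all 3 water arrays and on 1 array of each alcohol group. It read −5.42, −5.14 and −5.25 in water and −6.16, −6.82 and −6.40 in late high drinkers, without overlap. Late high drinkers differed from water by −1.19 on that probe (SE 0.41, adjusted p = 0.211) and by 0.01 on the first (SE 0.19), and the part of signal near background in this was not tested.

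Glp1r, the receptor by which glucagon-like peptide 1 lowers food intake, was measured by a probe that spans 3670 bases of chromosome 17 (mm9, chr17:31069561-31073230, plus strand) and so crosses an exon junction. It was well above background on 8 of 12 arrays, with intensities of 21.8 to 71.7. It read −5.95, −5.49 and −5.28 in water and −6.11 to −5.36 in 8 alcohol pools, with low pool 2 at −4.42. The difference between alcohol and water was −0.03 (SE 0.29, 95% interval −0.67 to 0.61, adjusted p = 0.990). Low pool 2 was thus the highest array for Glp1r, both Lepr probes and the second probes of Insr and Ghsr, and next to the highest for the dim Mc3r probe. These probes had median intensities of 28.8 to 61.8.

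**Figure D4:**
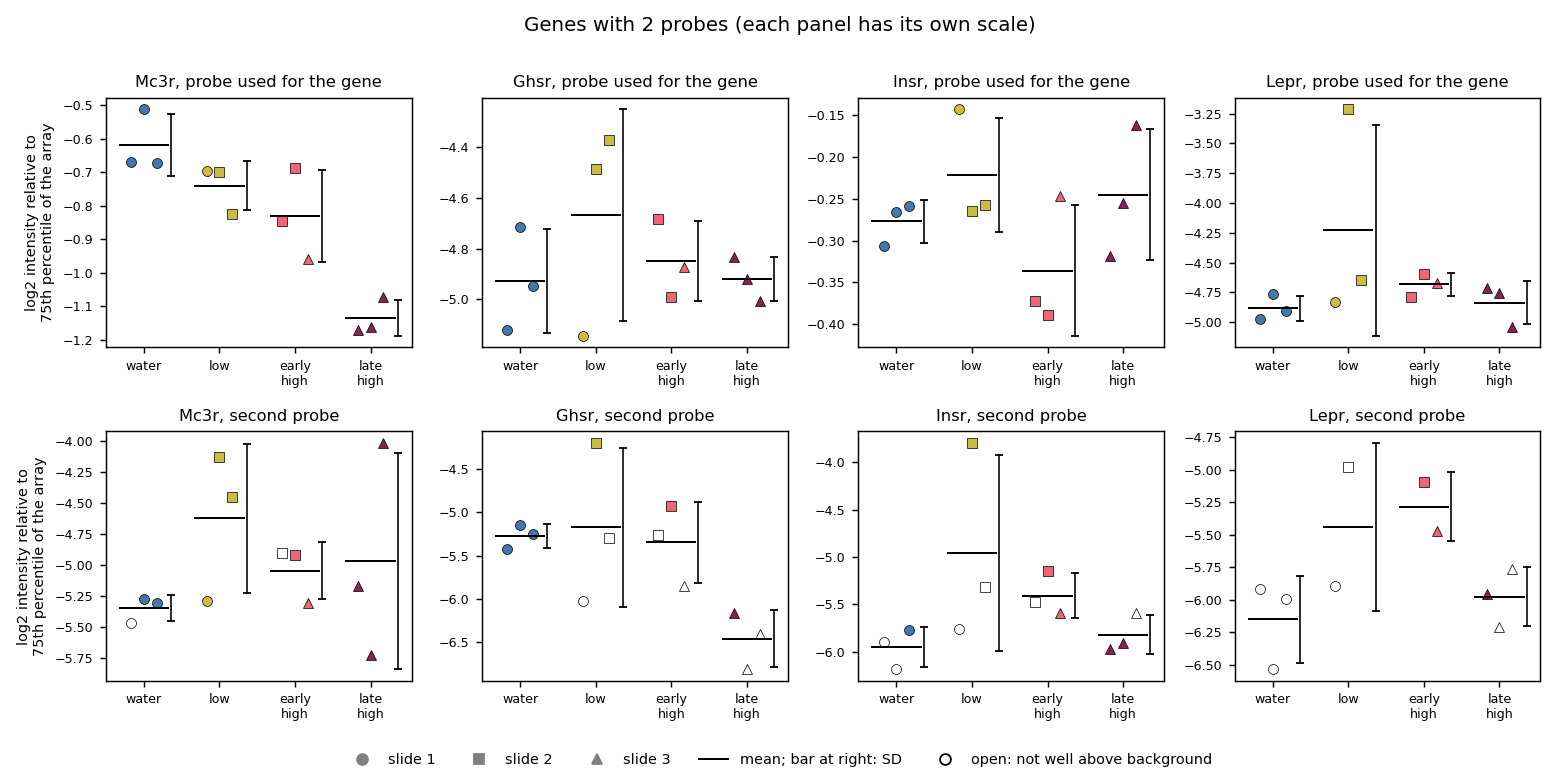
Log2 intensity, relative to the 75th percentile of the array (vertical axis, own scale in each panel), of both probes of Mc3r, Ghsr, Insr and Lepr in the 4 groups (horizontal axis), with open symbols where a spot was not well above background. The upper probe of Mc3r is lowest in late high drinkers, at −1.17 to −1.07, while its second probe spans −5.73 to −4.01 there, and the second probe of Ghsr reads −6.82 to −6.16 in late high drinkers.

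In the remaining comparisons 2 or 3 of the 14 probes had an unadjusted p under 0.05. In low drinkers against water these were 2 of 14, the dim second probes of Lepr and Insr, both higher. Of all 31833 probes 9.15% had such a p (8.42% higher, 0.735% lower) and 0.179% passed after adjustment. Counting pools with a value, low pools lay wholly above water for 2 of 14 (the same second probes, Lepr with 2 of 3 low pools) and wholly below for 1 (Mc3r), against 8.96% and 2.1% of all probes counted alike. In early high drinkers 3 of 14 had an unadjusted p under 0.05 (Mc3r and Npy5r lower, the second Lepr probe higher), against 4.8% of 32398 probes (2.93% higher, 1.87% lower, 0% after adjustment). Their pools with a value lay wholly above water for 2 of 14 (the second Insr probe, and the second Lepr probe with 2 of 3 early pools) and wholly below for Mc3r and Npy5r, against 12.5% and 5.44%.

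In late high drinkers 3 of 14 had an unadjusted p under 0.05, all lower (Mc3r, Npy5r and the second Ghsr probe), against 15.7% of 32491 probes (6.83% higher, 8.88% lower, 0% after adjustment). The same 3 lay wholly below water and none wholly above, against 13.6% and 12.8%. In high against low drinkers 2 of 14 did, both lower (Mc3r and Npy5r), against 15.5% of 32150 probes (3.31% higher, 12.2% lower, 0.0747% after adjustment). In late against early high drinkers 2 of 14 did, both lower (Mc3r and the second Ghsr probe), against 12.1% of 33141 probes (4.14% higher, 8% lower, 0% after adjustment). Late pools lay wholly below the early pools with a value for 3 of 14 (these and the second Lepr probe, with 2 of 3 early pools) and wholly above for none, against 14.6% and 7.99%. Over the 10 genes the median difference from water was −0.05 in alcohol, 0.04 in low, −0.06 in early high and −0.15 in late high drinkers, beside 0.03, 0.04, 0.02 and 0.00 over all probes. It was −0.16 in high against low drinkers and −0.08 in late against early high drinkers, beside −0.06 and −0.03.

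The other genes of these pathways were described from 4 lists, of which none held a gene that passed adjustment in any of the 6 comparisons. Late high drinkers were lower than water at an unadjusted p under 0.05 in 1 of 14 ligand and 1 of 18 leptin path genes. The same held for 4 of 27 other receptors and for 8.88% of all probes. Higher were 0, 0 and 1 genes of these lists, against 6.83%. No values with slide as a block are given for pathway genes, and all water pools shared slide 1. Of the ligands and the enzymes that make them, 14 of 16 were tested in alcohol against water, with a median of 0.10 beside 0.03 over all probes, and 11 had a positive difference. Neuropeptide Y (Npy), the ligand of Npy1r, Npy2r and Npy5r, differed by 0.20 (SE 0.12, adjusted p = 0.819), and Cpe, an enzyme that trims peptide hormones, by 0.10 (SE 0.05, adjusted p = 0.819), the 1 ligand gene with an unadjusted p under 0.05. Agrp, the antagonist of Mc3r and Mc4r, differed by 0.15 (SE 0.11), and Pomc, the source of their agonist, by −0.06 (SE 0.30). Pomc read 5.01 in low pool 1 and 3.27 to 3.73 on the other 11 arrays, and without that pool its difference was −0.24. The pituitary hormone genes Gh and Prl were also highest in low pool 1, at −0.93 and 0.36. The summed level of the 5 pituitary genes was instead highest in water pool 3, at 3.63 against 3.23 in low pool 1, and Pomc read 3.60 in water pool 3. By the centered mean of the 5 genes low pool 1 was highest, at 2.10 against 1.46 in water pool 3. The part of pituitary genes in the Pomc value was not tested. Among ligands well above background on all arrays, Pyy, a gut peptide that Npy2r reads, had the most negative difference in alcohol against water, at −0.21. It was also the most negative in late high drinkers, at −0.45 (SE 0.12, adjusted p = 0.142), where Npy had the most positive, at 0.25 (SE 0.13, adjusted p = 0.398). Pyy was also at −0.33 in high against low drinkers and at −0.26 in late against early high drinkers (adjusted p = 0.194 and 0.412).

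Of the leptin signal path, all 18 genes were tested and all were well above background on all 12 arrays, with a median of 0.03 beside 0.03 over all probes. Stat3, the transcription factor through which Lepr acts, differed by 0.21 (SE 0.09, adjusted p = 0.819), and Socs7, a relative of Socs3, by 0.87 (SE 0.48, adjusted p = 0.819). Leprotl1, whose relative Leprot shares its gene with Lepr and limits receptor at the cell surface, differed by −0.15 in alcohol (SE 0.07, adjusted p = 0.819). In late high drinkers it differed by −0.27 (SE 0.06, adjusted p = 0.114) with no overlap between late high and water pools, where 13.6% of all probes lay wholly below. It was at −0.15 in early high drinkers against water and at −0.18 in high against low drinkers (adjusted p = 0.886 and 0.167). In late high drinkers Socs7 had the highest difference of the path, 0.54 (SE 0.61), and Ptpn1, a phosphatase that turns leptin and insulin receptor signals off, differed by 0.18 in late against early high drinkers (SE 0.07, adjusted p = 0.354). Of the insulin signal path, 22 of 23 genes were tested, with a median of 0.02. Pik3r2, a regulatory subunit of the kinase that Insr drives, differed by 0.14 (SE 0.06, adjusted p = 0.819), and Irs4, an adaptor of the receptor, by −0.18 at the low end. In late high drinkers Pik3r2 was at 0.21 and Gsk3b at 0.20 relative to water, with adjusted p of 0.201 and 0.225, and Irs4 was lowest at −0.23. Irs4 had the most negative difference of the path also in early high drinkers, at −0.35, and in high against low drinkers, at −0.32 (adjusted p = 0.886 and 0.331). Gsk3b was also at 0.21 in early high drinkers and at 0.23 in high against low drinkers, and Mtor at 0.20 in the latter (adjusted p = 0.886, 0.146 and 0.249).

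Of 30 other feeding receptors, 27 were tested, 14 of them with a positive difference between alcohol and water and a median of 0.00. Among those well above background on all arrays, Gipr was highest at 0.26 and Glp2r lowest at −0.23. Cntfr, the ciliary neurotrophic factor receptor, whose ligand lowers food intake, differed from water by 0.12 in low drinkers (SE 0.08, adjusted p = 0.729), −0.21 in early high drinkers (SE 0.08, adjusted p = 0.886) and −0.54 in late high drinkers (SE 0.08, adjusted p = 0.0918). High drinkers differed from low drinkers in Cntfr by −0.49 (SE 0.07, adjusted p = 0.0517), and its pools did not overlap in these last 3 comparisons. Of all probes tested, 5.44%, 13.6% and 5.05% lay wholly below in these comparisons. In high against low drinkers 5 of the 27 receptors were lower and 0 higher at an unadjusted p under 0.05, against 12.2% and 3.31% of all probes. Gipr, the receptor for the gut hormone GIP, differed by 0.57 in low drinkers (SE 0.13, adjusted p = 0.180) and by −0.48 in high against low drinkers (SE 0.11, adjusted p = 0.114). Mchr1, a receptor of melanin-concentrating hormone, differed by 0.35 in early high drinkers (SE 0.15, adjusted p = 0.886), and Calcr, the calcitonin receptor that amylin also uses, by −0.17 in high against low drinkers (SE 0.08, adjusted p = 0.312). Galr3, a galanin receptor, differed by −0.63 in late against early high drinkers (SE 0.19, adjusted p = 0.331). The highest difference of the list in late high drinkers was that of Ramp3, a partner protein of the calcitonin receptor, at 0.57 with a wide error (SE 0.61, adjusted p = 0.701). In the same comparison Igf1r was at 0.31 and Mc1r at −0.55 relative to water, with adjusted p of 0.149 and 0.168, and Glp2r lay lowest of the list at −0.83 (SE 0.33, adjusted p = 0.262). Late against early high drinkers were at −0.33 in Cntfr, −0.64 in Mc1r, −0.89 in Glp2r and 0.20 in Igf1r (adjusted p = 0.324, 0.324, 0.360 and 0.394), and high against low drinkers at −0.50 in Mc1r (adjusted p = 0.168).

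**Figure D5:**
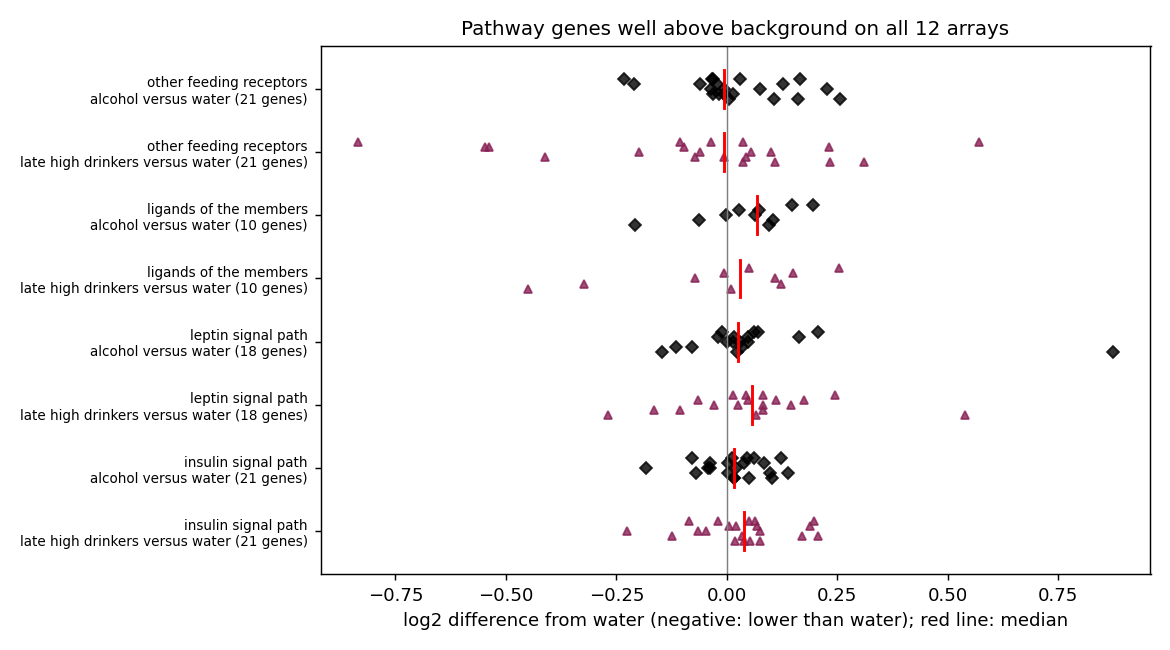
Log2 difference from water (horizontal axis) of each gene in 4 lists that was well above background on all 12 arrays (vertical axis, list and comparison), for all alcohol pools and for late high drinkers, with the list median in red. Medians lie between −0.01 and 0.07 in alcohol, and Glp2r at −0.83 is the point farthest below 0 in late high drinkers.

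The genes that followed each member most closely over the 12 arrays were found by Pearson's r among 21982 probes well above background on all 12 arrays whose gene name is a symbol and not a probe, clone or transcript number, as a description without a test, since arrays share slides. Mc3r was followed by Csf2rb and Sema4d (r = 0.966 for each, and 0.778 and 0.781 after slide means were removed), and Npy5r by Pak7 (0.960) and Mospd1 (0.958). Lepr was followed by Dscc1 (0.975) and Glp1r by Nol4 (0.959), both patterns in which low pool 2 takes part. Mc4r was followed by Smad3 (0.928), Npy2r by Camta1 (0.938), Ghsr by Rbpms (0.937), Npy1r by Gspt2 (0.902), Socs3 by Ppp2r5c (0.901) and Insr by Slc12a2 (0.880). Among the 45 pairs of members, r ran from −0.60 (Ghsr and Npy2r) to 0.81 (Lepr and Glp1r) with a median of 0.07. The highest r leans on low pool 2, which stood apart from the other arrays for both Lepr and Glp1r. Mc3r and Npy5r had an r of 0.67 over the arrays and 0.02 after slide means were removed.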

How the data were processed

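Hypothalamic RNA pools were hybridized to 12 Agilent 1-color arrays. The authors deposited the scanner output, whose signal intensity had been background-corrected by Feature Extraction (version 10.5.1.1), linear and unscaled between arrays. A second deposited table held the same linear intensities. Their methods name no scaling between arrays.

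Here log2 intensities were set relative to each array's 75th percentile over 43379 non-control spots. Left out were non-uniform outlier spots and those whose signal was under 2 times its error. Repeated spots were averaged, and testing a probe required values on over 50% of each group's arrays. limma (version 3.58.1, R 4.3.3) compared all 9 alcohol pools with 3 water pools in a 2-group fit and the other pairs in a 4-group fit, with Benjamini-Hochberg adjustment over all probes. A gene was represented by its probe with the highest mean. Pathway genes were to be named, on probes detected on all arrays, where they had an unadjusted p under 0.05 or the most positive or negative difference of their list. The text gives these extremes for alcohol and for late high drinkers against water. Summed levels of marker lists are log2 of summed linear values. The tests were checked on simulated data with independent noise and no missing values. These held no slide or scan day effect, so that check could not address the overlap of slide and group. Promoters are from RefSeq (8 of 10 genes matched). Members and lists were chosen with earlier results of these data known, and tests of Mc3r and Npy5r beyond alcohol against water were added after their values were seen. The number of arrays limits precision, and p-values measure only the spread between pools. The results of 1 gene of the insulin signal path are not reported here.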

Additional observations from a re-analysis of the deposited data

Results flagged for a closer look

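Of 28 sets of arrays examined (14 probes, over the 9 alcohol arrays and over the 6 high drinker arrays), 4 had an array whose distance from its nearest neighbor passed Dixon's 95% critical value, and chance gives about 1 in 20, or 1.4 of 28. Low drinker pool 2 was the highest alcohol array in 3 of them. Lepr read −3.21 there and −4.60 on the nearest array, which left 0.757 of the whole range between them. The second Insr probe read −3.79 with the next at −5.14 (0.619 of the range), and Glp1r read −4.42 with the next at −5.36 (0.554). Among the 6 high drinker arrays, Npy5r in late high drinker pool 1 was lowest at −1.62, with the next at −1.57 (0.713 of a narrow range). The part of low pool 2's RNA or hybridization in the first 3 was not tested.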

How the results depend on the processing

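Across 21 alternatives no probe of the 10 genes passed an adjusted p of 0.05 in alcohol, or in early high drinkers, against water, or in late against early high drinkers. The 2 unadjusted passes in alcohol against water, beside 5.53% of all probes, became 1 with normexp background correction (3.41%), 4 with quantile normalization (6.12%), 0 with slide as a fixed or random block or scan day as a block (2.1%, 1.73% and 1.68%), and 0 to 2 with 1 array left out (3.73% to 9.04%). High against low drinkers had 2 adjusted passes with scan day as a block (both Ghsr probes, beside 11.4% of all probes) and 0 to 1 with 1 array left out (Ghsr without low pool 1), low drinkers 0 to 1 (Ghsr without low pool 1, 0.50, adjusted p = 0.0487) and late high drinkers 0 to 1 (Mc3r without late high pool 3, adjusted p = 0.0355). Mc3r in late high drinkers was −0.55 to −0.26 over its alternatives (adjusted p = 0.0355 to 0.748), and in high against low drinkers −0.28 to −0.092 (adjusted p = 0.0903 to 0.753). Npy5r was −0.27 to −0.089 (adjusted p = 0.177 to 0.910) and −0.20 to −0.014 (adjusted p = 0.233 to 0.950) in these comparisons, nearest 0 with scan day as a block and without scaling.

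Slide or scan day as a block, for which alcohol against water rests on low pool 1, turned Ghsr to −0.22, Mc4r to 0.18, Npy2r to 0.070, Npy5r to 0.022 and Socs3 to 0.11. Quantile normalization turned Ghsr to −0.13, its second probe gave −0.39, the second Mc3r probe gave 0.47, and normexp turned Glp1r to 0.014. With 1 array left out, the sign turned within ranges of −0.0061 to 0.025 for Insr, −0.13 to 0.013 for Mc4r, −0.19 to 0.0016 for Npy2r, −0.22 to 0.12 for Glp1r and −0.15 to 0.012 for Socs3. The cause was not tested. Without scaling, the median of all probes moved by over 0.1, to 0.13 in late high drinkers against water, and Mc3r was then at −0.39. Over all probes, the 24 adjusted calls in high against low drinkers became 359 with normexp, 3670 with scan day as a block, 1 with quantile normalization, 13 with slide as a random block and 0 with no signal/noise filter or the replicate block, and 0 (without low pool 2, or early high pool 2 or 3) to 2507 (without low pool 1) with 1 array left out. The 57 in low drinkers became 6 with quantile normalization, 33 with slide as a random block, 7 with the replicate block, 0 with slide as a fixed block or no filter, and 1 (without water pool 3 or low pool 2) to 2506 (without low pool 1). The methods' t-test gave 1688 unadjusted and 0 adjusted calls in alcohol against water, 2 unadjusted ones among the 14 probes. Replicate numbers did not pair the arrays (r of −0.09 to 0.18 between same-numbered arrays), and the replicate block left 1 unadjusted pass, beside 5.2% of all probes. Low signal limits Glp1r, Lepr, Ghsr and the second probes.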
